A study of Homo sapiens with 9 samples.

Results

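The genes described here encode the COPII coat proteins SEC23A, SEC23B, SEC24A, SEC24B, SEC24C, SEC24D and SEC31A and the SEC22 proteins SEC22A, SEC22B and SEC22C. They were measured in SW1783 cells, an established human glioma line, after transfection with 1 of 2 forms of the small RNA miR-376a* or with a control miRNA. The families were chosen by measured values from these same arrays: SEC23B was lower under miR-376a*A than on either the control or the miR-376a*G arrays, and SEC22C was higher under both forms than on the control arrays. Those values are therefore given as a description with no test, and the other genes were added because they belong to the same protein families. The array carries 25 probe sets annotated to 1 of these 10 genes alone, of 54675 probe sets in all. A filter on dim probe sets kept 24 of the 25, and it kept at least 1 for each of the 10 genes, of 12505 genes kept in the whole series. Another 2 probe sets name SEC22B together with pseudogenes and are given separately.

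Each of the 3 groups held 3 biological replicates on 1 array each, so there were 9 arrays. The first group received duplexes of miR-376a*A, the second miR-376a*G, and the third a control miRNA; the first 2 are called the A form and the G form below. In every group the duplex was given at 50 nM with the transfection reagent Lipofectamine RNAiMAX, and total RNA was taken after 24 h. All arrays thus come from 1 line with an added duplex, and no untransfected cells were analysed here.

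COPII is the protein coat that buds vesicles from the endoplasmic reticulum (ER) and carries newly made secretory and membrane proteins toward the Golgi apparatus. SEC23 and SEC24 form the inner coat: SEC23 switches on the hydrolysis of GTP by the small GTPase SAR1, and SEC24 binds the cargo. SEC31 builds the outer cage together with SEC13. SEC22B is a SNARE, a membrane fusion protein of traffic between the ER and the Golgi, and SEC22A and SEC22C are related proteins that are less well understood. A microRNA pairs through its seed, the stretch near its 5′ end, with sites in messenger RNAs, and adenosine-to-inosine editing of a microRNA, where inosine is read as guanosine, can change which sites it pairs with.

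The unedited sequence is shown because the 2 transfected forms are named for an A or a G in it. It is hsa-miR-376a-5p, the current name of miR-376a*, from the gene MIR376A1 on the plus strand at chr14:101040788-101040809 in RefSeq's GRCh38.p14, 22 bases long, with the seed (bases 2 to 8) in capitals.
hsa-miR-376a-5p: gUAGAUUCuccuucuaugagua
The seed holds 2 adenosines, at positions 3 and 5 counted from the 5′ end. Which base differs between the 2 transfected forms is not given in the sources used here, so the sequence of the G form is not printed.

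Signals below are the deposited array signals, in scanner software units with every array scaled to a trimmed mean of 100.01 to 100.013. Differences are on the scale of log2(signal + 16) after quantile normalization, which understates the change of dim probe sets. Adjusted p-values are from limma with Benjamini-Hochberg adjustment over all genes or over all probe sets that passed the filter, and a gene or probe set was called at an adjusted p under 0.05. The spread within a group covers 3 replicates that the labels call biological. Control replicate 1 stood apart: its rank correlation with any other array reached at most 0.941, while the other 8 arrays correlated at 0.960 to 0.970. There, 772 genes were 2-fold or more away from the average of the other 2 controls, which themselves differed 2-fold or more in 25 genes. Differences of the 10 genes from the control are therefore also given without it. VIM (2218 to 4401 units) and CD44 (2116 to 3105 units), which glioma lines express, were bright on all arrays, but the astrocyte markers GFAP (1.30 to 3.75 units) and S100B (1.00 to 2.64 units) were near the floor, and 5 of 10 glioma and astrocyte markers passed the filter. None of 3 leukocyte markers passed it, and of 3 epithelial markers 1 did, KRT18 (1041 to 1780 units). All 4 neuronal markers passed the filter, and their summed signal was 931 to 998 units with the A form, 587 to 755 with the G form and 655 to 840 in the controls. That sum rests mainly on SNAP25 (means of 416, 371 and 186 units in the same order) and SYT1 (504, 235 and 507 units). These genes did not move together, so the sum does not describe a shared neuronal change. RBFOX3 and STMN2 were dim, with medians of 20.6 and 23.4 units. The 3 endothelial markers, 1 of them past the filter, summed to 101 to 107, 71.4 to 79.8 and 91.7 to 181 units in the same order. The part of these differences in the results below was not tested.

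Of the 10 genes, 2 had an adjusted p under the threshold in each comparison. That count includes the genes that chose the families, for which it is no test. Against the control, the A form had SEC22C higher and SEC23B lower, the 2 genes that chose the families, and none of the other 8 genes was called by limma, with none at an unadjusted p under 0.05 either. With the G form against the control, SEC22C was higher and SEC22B lower, and SEC22B was thus 1 of 9 genes not used in the choice. Between the forms, SEC23B was lower with the A form and SEC22B higher, so that again 1 of 9 other genes was called. Over all 12505 genes the share called was 3.33% for the A form against control, 4.62% for the G form against control and 2.63% for the A form against the G form. With so few genes, counts of 0 of 8 and 1 of 9 are too small to be set against these shares. The median difference over the 10 genes was 0.08, -0.03 and 0.15 on the log2 scale in the same order, beside 0.01, 0.01 and 0.00 over all genes. Without control replicate 1 it was -0.10, -0.14 and 0.15, beside 0.02, 0.02 and 0.00, so the sign with the A form turned with that array.

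**Figure D1:**
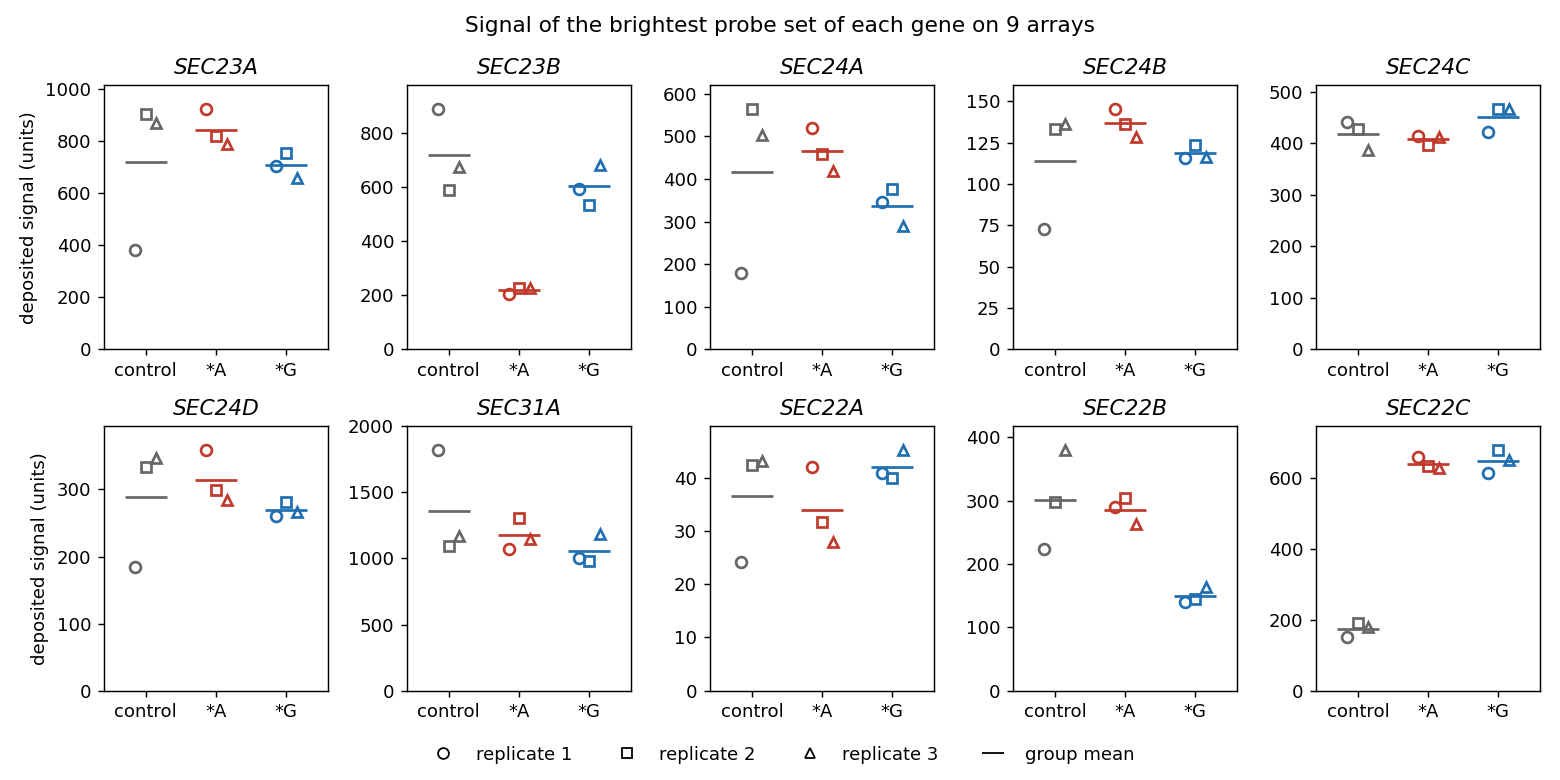
Deposited signal (vertical axes, scanner software units, each starting at 0) of the brightest probe set of each of the 10 genes, with 1 marker per array, shaped by replicate number, and a line at the group mean of 3 arrays. SEC23B is low on all 3 A-form arrays (206 to 229 units), SEC22B on all 3 G-form arrays (140 to 163 units) and SEC22C on all 3 control arrays (151 to 189 units), while control replicate 1 lies away from the other 2 controls in several panels.

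SEC23B, 1 of the 2 SEC23 paralogs of the inner coat, is also the gene altered in congenital dyserythropoietic anaemia type II. Its brightest probe set, 201583_s_at, read 206, 228 and 229 units with the A form, 594, 532 and 680 units with the G form, and 888, 589 and 674 units in the controls. All 3 A-form arrays lay below the other 6 arrays. The group means were 221 ± 13.0, 602 ± 74.6 and 717 ± 154 units (SD, n = 3), so SEC23B was 3.04-fold lower with the A form than in the controls (log2 difference -1.60, SE 0.15) and 2.59-fold lower than with the G form (-1.37). The first difference was -1.44 when control replicate 1 was left out. In bulk RNA such as this, fewer cells that express a gene and less RNA per cell cannot be told apart.

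The other 2 probe sets of SEC23B gave the same pattern. Probe set 210293_s_at read 223, 198 and 173 units with the A form, 538, 574 and 507 with the G form, and 262, 680 and 659 in the controls. Probe set 201582_at read 28.0, 32.1 and 27.3 units with the A form, 156, 148 and 181 with the G form, and 113, 160 and 182 in the controls. In all 3 probe sets the A-form arrays fell below every array of the other groups, with log2 differences against the control of -1.60, -1.28 and -1.85. Control replicate 1 was the highest control in 201583_s_at and the lowest in the other 2 probe sets.

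The G form against the control was not used to choose SEC23B, and there it did not pass the test. The log2 difference was -0.23 (SE 0.15, 95% confidence interval -0.56 to 0.10, limma adjusted p = 0.471) in the brightest probe set, and 0.08 and 0.09 in the other 2. Without control replicate 1 the 3 probe sets gave -0.08, -0.32 (limma adjusted p = 0.0617 for 210293_s_at) and -0.05.

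SEC23A, the other SEC23 paralog, is altered in cranio-lenticulo-sutural dysplasia. Its brightest probe set, 212887_at, read 923, 820 and 789 units with the A form, 705, 753 and 659 with the G form, and 381, 902 and 870 in the controls. Control replicate 1 lay far below every other array, and each form overlapped the controls. The A-form arrays lay above the G-form arrays, but that difference of 0.24 did not pass (SE 0.26, limma adjusted p = 0.915). Its SE includes the spread of the controls. Without control replicate 1 the difference between the forms was again 0.24 (SE 0.08, limma adjusted p = 0.0858) and did not pass. The differences from the control were 0.27 with the A form (SE 0.26, limma adjusted p = 0.696) and 0.03 with the G form (limma adjusted p = 0.974). When control replicate 1 was left out, SEC23A fell by 0.35 with the G form (limma adjusted p = 0.0204) and stood at -0.11 with the A form. The sign of the G-form difference thus turned with that 1 array. The second probe set, 204344_s_at, ranged from 444 to 665 units over the 9 arrays and gave -0.06 and -0.20, or -0.16 and -0.30 without control replicate 1.

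The 4 SEC24 paralogs select cargo by binding sorting signals in membrane proteins. Only SEC24A among them had a probe set past the threshold. Its probe set 212902_at read 198, 223 and 194 units with the A form, 112, 122 and 126 with the G form, and 126, 133 and 160 in the controls. The A-form arrays lay above all the others. Relative to the control this probe set rose by 0.51 with the A form (SE 0.11, limma adjusted p = 0.0471), and relative to the G form it was higher by 0.71 (SE 0.11, limma adjusted p = 0.0103). Its difference of -0.20 with the G form against the control did not pass (limma adjusted p = 0.419). Without control replicate 1 these differences from the control were 0.48 (limma adjusted p = 0.0116) and -0.22. The call against the control was not stable: with the replicate number as a block its limma adjusted p was 0.118, and leaving out 1 array ended it for 7 of the 9 arrays, all but control replicates 1 and 3 (limma adjusted p = 0.0869 to 0.236). The call between the forms ended without any 1 of the A-form arrays or G-form replicate 1 or 2 (limma adjusted p = 0.0526 to 0.0823).

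The brightest SEC24A probe set, 212900_at, did not show the rise against the control. It read 520, 459 and 418 units with the A form, 345, 377 and 289 with the G form, and 179, 564 and 503 in the controls. Here too the A-form arrays lay above the G-form arrays, and both lay within the range of the controls. The differences were 0.27 with the A form (limma adjusted p = 0.766), -0.19 with the G form (limma adjusted p = 0.820) and 0.46 between the forms (limma adjusted p = 0.777). Without control replicate 1 it fell by 0.65 with the G form (limma adjusted p = 0.00501), gave -0.20 with the A form (limma adjusted p = 0.328), and was higher by 0.45 with the A form than with the G form (limma adjusted p = 0.0248). The third probe set, 244841_at, ranged from 27.4 to 51.7 units and gave 0.01 and -0.18 against the control, or -0.11 and -0.30 without control replicate 1.

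None of the other SEC24 genes was called in any comparison. For the A form against the G form, SEC24B, SEC24C and SEC24D gave 0.18, -0.13 and 0.22 (limma adjusted p = 0.899, 0.834 and 0.863). Without control replicate 1 these were 0.19, -0.12 and 0.22 (limma adjusted p = 0.158, 0.369 and 0.165). SEC24B read 145, 136 and 128 units with the A form, 116, 124 and 116 with the G form, and 73.0, 133 and 136 in the controls. Its differences were 0.29 (limma adjusted p = 0.515) and 0.10 (limma adjusted p = 0.823) against the control, and 0.05 and -0.14 without control replicate 1. SEC24C had the least spread among them: it read 415, 398 and 412 units with the A form, 422, 467 and 467 with the G form, and 442, 428 and 387 in the controls. Its differences were -0.05 (SE 0.10, limma adjusted p = 0.870) and 0.07 (limma adjusted p = 0.757), and 0.01 and 0.13 without control replicate 1.

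SEC24D, altered in a form of brittle bone disease, read 358, 299 and 284 units with the A form, 261, 281 and 266 with the G form, and 184, 333 and 347 in the controls in its brightest probe set, 202375_at. The differences were 0.14 (limma adjusted p = 0.786) and -0.08 (limma adjusted p = 0.877). When control replicate 1 was left out, the first became -0.10 and the second -0.32 (limma adjusted p = 0.05004, just over the threshold). A second probe set, 215209_at, ranged from 27.4 to 53.6 units with no call, and the third, 215641_at, was too dim for the test at 13.7 to 28.0 units.

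SEC31A, the subunit of the outer cage, read 1071, 1307 and 1147 units with the A form, 1002, 982 and 1185 with the G form, and 1819, 1095 and 1170 in the controls in probe set 210616_s_at. Its differences were -0.15 (SE 0.13, limma adjusted p = 0.668) and -0.27 (limma adjusted p = 0.324). In the second probe set, 200945_s_at, the controls read 301, 887 and 897 units and the differences were 0.22 and 0.18. Control replicate 1 was thus the highest of all arrays in 1 probe set of SEC31A and the lowest in the other. Without it 210616_s_at gave -0.03 and -0.15, and 200945_s_at turned to -0.25 (limma adjusted p = 0.106) and -0.29 (limma adjusted p = 0.0568).

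Among the SEC22 genes, SEC22B fell with the G form, and it was lower there than with the A form. Its brightest probe set, 214257_s_at, read 290, 303 and 264 units with the A form, 140, 145 and 163 with the G form, and 223, 298 and 379 in the controls. All 3 G-form arrays lay below the other 6. The group means were 286 ± 20.2, 149 ± 12.1 and 300 ± 78.1 units (SD, n = 3). The fall against the control was 1.92-fold (log2 difference -0.94, SE 0.15, 95% confidence interval -1.27 to -0.60, limma adjusted p = 0.00629). With the A form the difference from the control was -0.07 (95% confidence interval -0.40 to 0.27, limma adjusted p = 0.893). SEC22B was 1.83-fold higher with the A form than with the G form (log2 difference 0.87, limma adjusted p = 0.0131), which is the direct test of the 2 forms. Leaving out 1 array ended that call for 5 of the 6 treated arrays, all but G-form replicate 3 (limma adjusted p = 0.0526 to 0.0828), and no array left out ended the call against the control. With p-values adjusted over all probe sets, 214257_s_at lost its call against the control without G-form replicate 1 (limma adjusted p = 0.0502), and its call between the forms ended without any 1 of the 6 treated arrays (limma adjusted p = 0.0592 to 0.106). The log2 difference was -1.09 without control replicate 1 (limma adjusted p = 9.50e-05), and -0.21 with the A form (limma adjusted p = 0.238).

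The 2 probe sets that name SEC22B beside its pseudogenes gave the same order of groups. Probe set 209206_at read 389, 317 and 315 units with the A form, 155, 168 and 127 with the G form, and 215, 474 and 401 in the controls. Probe set 209207_s_at read 463, 546 and 612 units with the A form, 270, 250 and 269 with the G form, and 535, 682 and 593 in the controls. In both, every G-form array lay below every other array, with log2 differences against the control of -1.17 (limma adjusted p = 0.0198) and -1.18 (limma adjusted p = 0.000517). With the A form they were higher than with the G form by 1.11 (limma adjusted p = 0.0353) and 0.99 (limma adjusted p = 0.00175). These signals may include pseudogene transcripts. The dim probe set 233020_at of SEC22B alone (14.6 to 67.1 units) did not follow: its differences from the control were 0.00 and 0.07. Control replicate 1 was its lowest array, and without that array the differences were -0.45 with the A form (limma adjusted p = 0.102) and -0.38 with the G form (limma adjusted p = 0.141). Averaging the 2 probe sets of SEC22B alone therefore gave -0.44 with the G form against the control (limma adjusted p = 0.293) and 0.40 between the forms (limma adjusted p = 0.522).

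SEC22C was higher with both forms. Its brightest probe set, 225460_at, read 659, 633 and 629 units with the A form, 614, 678 and 651 with the G form, and 151, 189 and 180 in the controls. The 6 treated arrays lay far above the 3 controls, with group means of 640 ± 16.1, 647 ± 32.0 and 174 ± 19.7 units (SD, n = 3). The difference from the control was 3.44-fold with the A form (log2 1.78, SE 0.10) and 3.50-fold with the G form (1.81). These were 1.74 and 1.76 without control replicate 1. The forms themselves, a comparison not used in the choice, gave -0.02 for the A form against the G form (SE 0.10, 95% confidence interval -0.24 to 0.19, limma adjusted p = 0.990).

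The other 5 probe sets of SEC22C were dimmer and showed smaller differences from the control. Probe set 236268_at read 86.8, 78.6 and 76.7 units with the A form, 104, 103 and 75.2 with the G form, and 11.1, 70.7 and 54.3 in the controls. Its differences were 0.87 and 1.04 (SE 0.36), and without control replicate 1 they were 0.35 and 0.52. The remaining 4 lay between 0.03 and 0.24 with the A form and between -0.17 and 0.27 with the G form, or between 0.09 and 0.29 and between -0.27 and 0.24 without control replicate 1. The 3.44-fold and 3.50-fold differences thus belong to 1 of 6 probe sets. With the mean of all 6 probe sets in place of the brightest, the differences were 0.54 and 0.50.

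**Figure D2:**
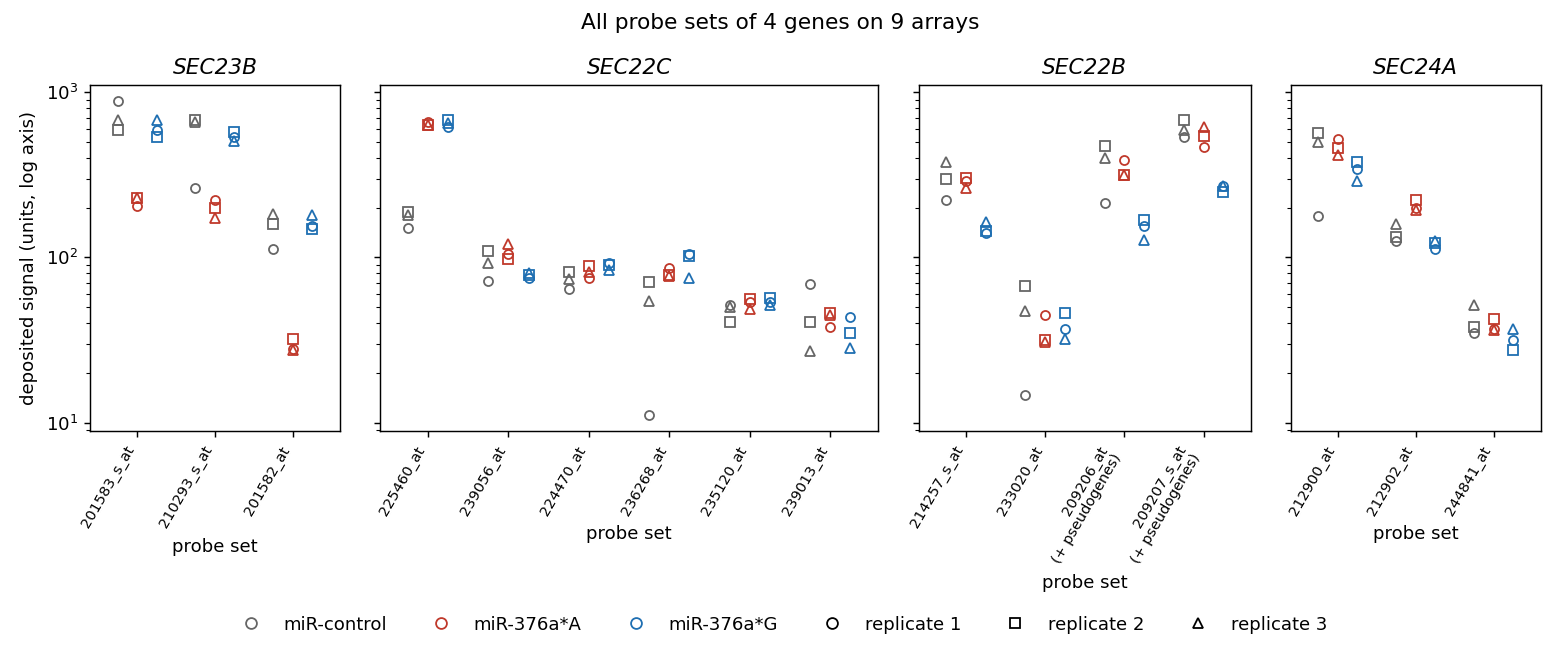
Deposited signal on a log axis of every tested probe set of SEC23B, SEC22C and SEC24A and, for SEC22B, also the 2 probe sets shared with pseudogenes, with 1 marker per array, coloured by group and shaped by replicate number. The 3 probe sets of SEC23B share the low A-form arrays, whereas 225460_at alone among the 6 probe sets of SEC22C has all 3 controls far below the treated arrays, at 151 to 189 units.

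SEC22A read 42.0, 31.7 and 27.9 units with the A form, 40.8, 40.0 and 45.2 with the G form, and 24.3, 42.4 and 43.1 in the controls. The groups overlapped, and the differences of 0.02 (limma adjusted p = 0.976) and 0.24 (limma adjusted p = 0.553) did not pass. With control replicate 1 left out they were -0.20 and 0.02. Its second probe set lay at 16.5 to 29.4 units. At such signals a change of moderate size is hard to detect.

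Counted by probe set, 5 of the 24 were called with the A form against the control, 2 with the G form against the control and 5 between the forms. The genes and comparisons that chose the families account for most of these: outside them, 1 of 15, 1 of 18 and 2 of 21 probe sets were called. Over all 27338 probe sets past the filter the shares called were 2.49%, 3.44% and 1.84%. The called probe sets outside the choice were those of SEC24A (212902_at) and SEC22B (214257_s_at) already described.

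**Figure D3:**
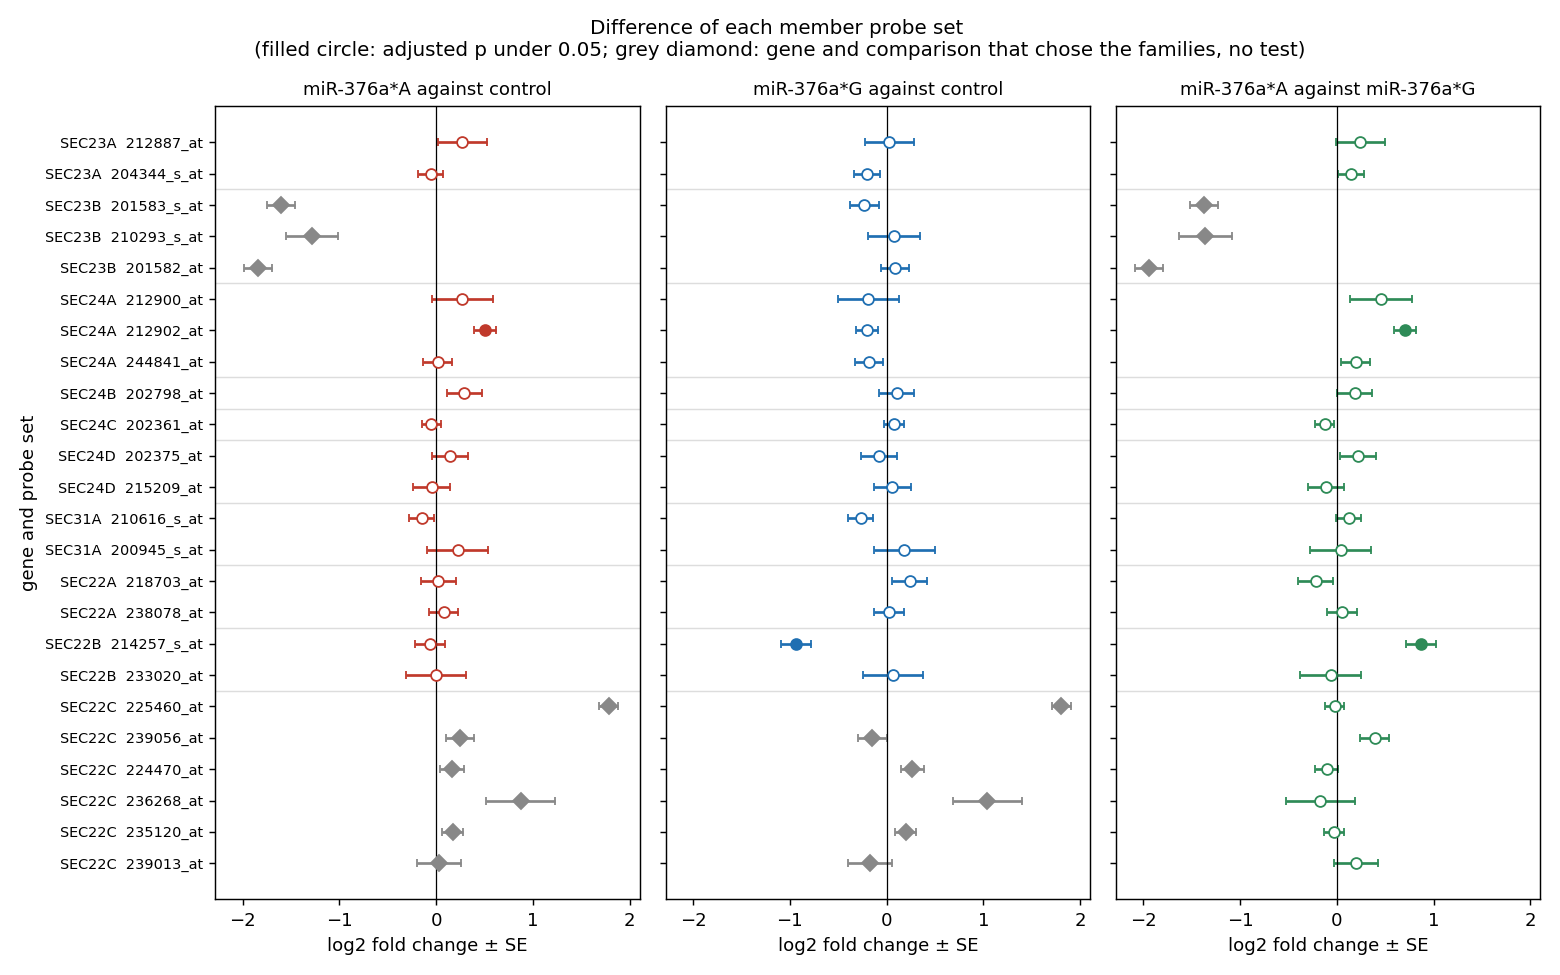
Log2 difference ± SE of the 24 probe sets in the 3 comparisons, all 9 arrays in 1 limma fit, with filled circles for an adjusted p under 0.05, open circles for the rest, and grey diamonds for the genes and comparisons that chose the families, which have no test. Outside the diamonds, 214257_s_at of SEC22B stands at -0.94 with the G form and 212902_at of SEC24A at 0.51 with the A form.

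Leaving out control replicate 1 raised the number of calls over all genes in every comparison. Among the 10 genes it rose with the G form against the control and between the forms, not with the A form against the control. With that array left out, 2 of the 10 genes were called with the A form against the control. There were 4 with the G form against the control (SEC22C higher, and SEC22B, SEC24A and SEC23A lower) and 3 between the forms. Outside the genes that chose the families, these were 0 of 8, 3 of 9 and 2 of 9. The shares over all genes rose to 13.4%, 17.0% and 9.72%. By their brightest probe sets, SEC23A and SEC24A were called with the G form against the control when this array was left out. They were also called there with array weights over all 9 arrays, but not with all 9 arrays weighted equally.

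Setting paralogs against each other within an array removes only what both genes share on that array. On control replicate 1 SEC23B was the highest control and SEC23A the lowest, so their difference kept the deviation of that array. The brightest probe sets of SEC23B and SEC23A differed by 0.02 ± 0.93 on the log2 scale in the controls (SD, n = 3), by -1.85 ± 0.22 with the A form and by -0.24 ± 0.28 with the G form. This balance thus shifted by -1.87 from the controls to the A form, and by -1.34 without control replicate 1, which alone gave 1.08. Since probe sets bind with different strength, only the shift between groups carries meaning, not the level of 1 gene against another.

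Both pairs that hold SEC22B separated the 2 forms. SEC22B minus SEC22A was 2.66 ± 0.22 in the controls, 2.57 ± 0.17 with the A form and 1.49 ± 0.06 with the G form. The 3 G-form arrays lay below all others, by 1.18 on average against the controls (exact two-sided permutation p = 0.1, adjusted p = 0.233). SEC22C minus SEC22B was -0.73 ± 0.29 in the controls, 1.12 ± 0.08 with the A form and 2.01 ± 0.12 with the G form. The groups did not overlap, and as SEC22C chose the family this pair has no test.

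Among the SEC24 paralogs, the pair of SEC24A and SEC24C had the largest mean difference between the forms. The SEC24 pairs reuse the same genes, so they are not independent of each other. SEC24A minus SEC24C was 0.18 ± 0.15 with the A form and -0.40 ± 0.22 with the G form (exact two-sided permutation p = 0.1, adjusted p = 0.233), while the controls spread over both at -0.14 ± 0.91. The A form minus the G form was 0.58 for this pair, 0.31 for SEC24B minus SEC24C and -0.35 for SEC24C minus SEC24D. There were 21 such tests over all pairs and comparisons. With 3 arrays against 3 the smallest p is 0.1, so none could pass.

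**Figure D4:**
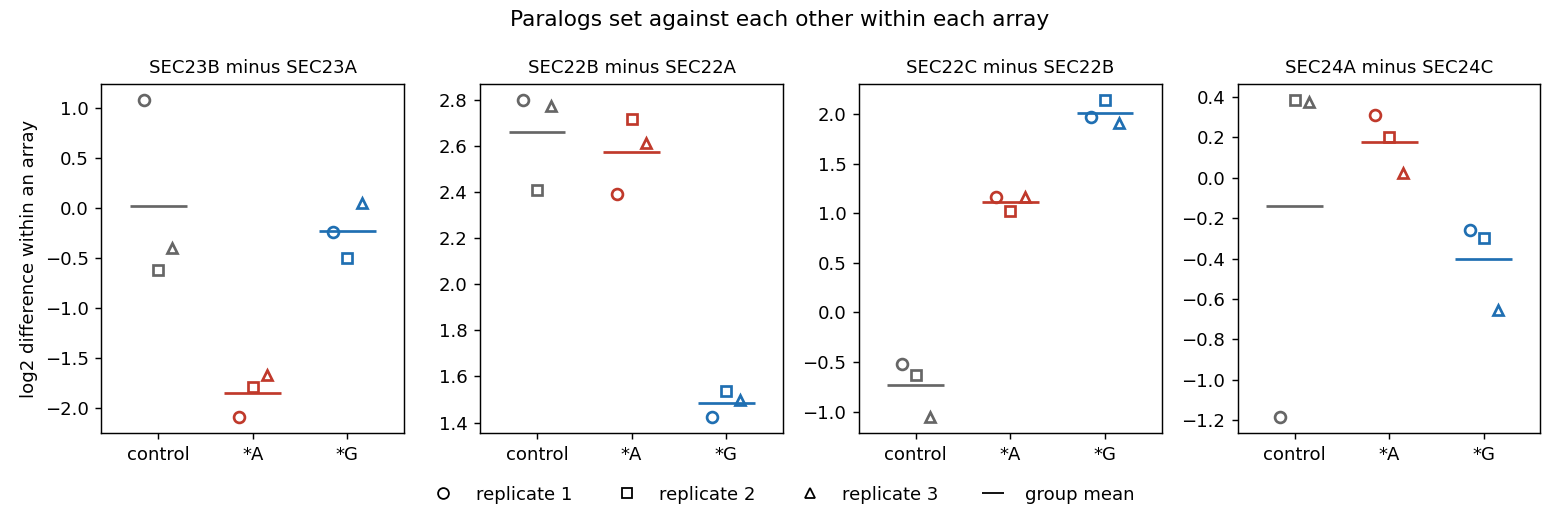
Log2 difference between the brightest probe sets of 2 paralogs within each array (vertical axes), with 1 marker per array, shaped by replicate number, and a line at the group mean. For SEC22B minus SEC22A the G-form arrays average 1.49 against 2.66 in the controls, and for SEC23B minus SEC23A control replicate 1 lies apart at 1.08.

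Beyond these genes, 4 lists covered the rest of the traffic between the ER and the Golgi, with 65 of 68 listed genes measured. Of the 65, 1 was called with the A form against the control, 4 with the G form against the control (2 higher, 2 lower) and 3 between the forms, beside 3.33%, 4.62% and 2.63% over all genes. Control replicate 1 moved these counts: without it, 6 were higher and 3 lower with the A form, 11 higher and 8 lower with the G form, and 4 higher and 2 lower between the forms, beside 13.4%, 17.0% and 9.72% over all genes. Of 14 other genes of COPII assembly, 1 was called, TFG, which organises the sites where COPII vesicles form. Of 18 cargo receptors and related proteins of ER export, 3 were called: TMED5, YIPF5 and LMAN2L. Of 20 SNAREs and tethers, NAPG, which helps to take SNARE complexes apart, was called. None of the 13 COPI coat genes was called by limma, with 2, 2 and 1 at an unadjusted p under 0.05 in the 3 comparisons. With control replicate 1 left out, 2 of them were higher with the A form, 1 was higher with the G form, and 0 were called between the forms. The median difference of the 4 lists lay between -0.06 and 0.13 in all comparisons.

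TFG and LMAN2L shared the pattern of SEC22B, low with the G form alone. TFG read 927, 961 and 977 units with the A form, 598, 553 and 649 with the G form, and 938, 925 and 1001 in the controls. It fell by 0.68 with the G form (SE 0.09, limma adjusted p = 0.00191), and it was higher by 0.66 with the A form than with the G form (limma adjusted p = 0.00256). Its second probe set stood at -0.62 with the G form against the control and did not pass (limma adjusted p = 0.0612). LMAN2L, a lectin that binds glycoproteins leaving the ER, read 444, 444 and 510 units with the A form, 280, 262 and 286 with the G form, and 502, 465 and 461 in the controls. It fell by 0.78 with the G form (SE 0.10, limma adjusted p = 0.00189), and it was higher by 0.73 with the A form than with the G form (limma adjusted p = 0.00301).

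TMED5, a protein of the p24 family that sorts cargo, rose with both forms. It read 1248, 1157 and 1123 units with the A form, 1086, 1213 and 1090 with the G form, and 401, 559 and 754 in the controls. The rises were 1.02 (SE 0.18, limma adjusted p = 0.0112) and 1.00 (limma adjusted p = 0.0112), but 3 other probe sets of TMED5 gave 0.15, 0.07 and 0.34 with the A form and 0.16, 0.33 and 0.48 with the G form and did not pass. The rises were 0.80 and 0.77 without control replicate 1. Leaving out A-form replicate 1 or 2 ended the first call (limma adjusted p = 0.0568 to 0.0643), and leaving out G-form replicate 2 ended the second (limma adjusted p = 0.0680).

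YIPF5, a membrane protein of the ER exit route, read 1609, 1642 and 1361 units with the A form, 1586, 1736 and 1850 with the G form, and 1019, 1285 and 1154 in the controls. It rose by 0.62 with the G form (limma adjusted p = 0.0362, and 0.0552 with the replicate number as a block), and its difference of 0.40 with the A form did not pass (limma adjusted p = 0.202). The rise was no longer called without any 1 of the G-form arrays, A-form replicate 1 or 2, or control replicate 3 (limma adjusted p = 0.0564 to 0.152). Of the other 3 probe sets of YIPF5, 2 also rose with the G form, by 0.46 (limma adjusted p = 0.00916) and 0.47 (limma adjusted p = 0.0166), and the third gave 0.32 (limma adjusted p = 0.350). The rise in the brightest was 0.46 without control replicate 1 (limma adjusted p = 0.0197). NAPG read 113, 105 and 99.4 units with the A form, 278, 299 and 255 with the G form, and 126, 297 and 344 in the controls. It was lower by 1.24 with the A form than with the G form (SE 0.26, limma adjusted p = 0.0353, and 0.0641 with the replicate number as a block), a call that ended without any 1 of the 6 treated arrays (limma adjusted p = 0.118 to 0.163). A second probe set of NAPG did not show this: it gave -0.12 between the forms (limma adjusted p = 0.940) and 0.15 with the A form against the control. Against the control the brightest NAPG probe set stood at -1.06 with the A form and did not pass (limma adjusted p = 0.0634). This brightest probe set fell by 1.44 with the A form when control replicate 1 was left out (limma adjusted p = 6.61e-06).

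**Figure D5:**
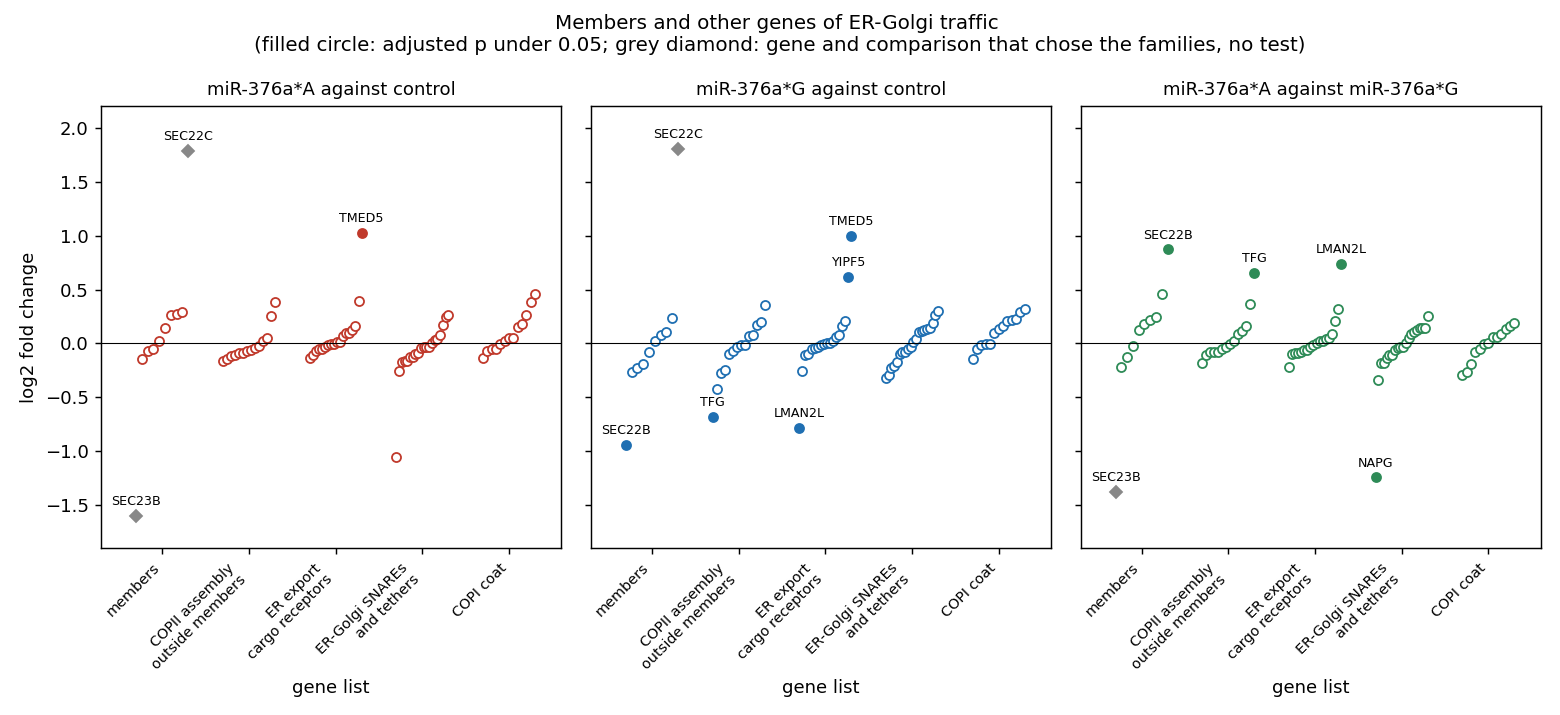
Log2 difference of the 10 genes and of the 65 measured genes in the 4 lists of ER-Golgi traffic, 1 panel per comparison, sorted within each list, with filled circles for an adjusted p under 0.05 and grey diamonds for the genes and comparisons that chose the families. TFG at -0.68 and LMAN2L at -0.78 stand below their lists with the G form, and TMED5 stands above its list with both forms.

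The genes whose levels over the 9 arrays were most like those of SEC23B, by Pearson correlation of log2 values, were SCML1 (0.993), ORAI3 (0.990), RSPRY1 (0.989), GIGYF2 (0.988) and MYH9 (0.986). Against the control they stood between -1.46 and -0.76 with the A form and between -0.27 and -0.06 with the G form. For SEC22C they were CBX1 (0.994), GLO1 (0.993), USP22 (0.991), NUP37 (0.991) and MRPS14 (0.991), with differences of 0.63 to 1.85 and 0.70 to 2.02. For SEC22B, added to this description after its values were seen, they were ROR1 (0.991), PCDH9 (0.989), PRRC1 (0.983), MAP2K4 (0.983) and FER (0.982), with -0.11 to -0.02 and -1.50 to -0.38. The 9 arrays fall into 3 groups, so such correlations mostly follow the group means and are given with no test.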

How the data were processed

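Total RNA was hybridised to Affymetrix arrays, 9 in all. Signal intensities per probe set were deposited by the authors as a table scaled per array. Per the submitters' processing notes they used GCOS 1.4.0.036, and the algorithm that summarised the probes is not given in the sources used here. From these values, log2(signal + 16) was quantile-normalized between arrays, and probe sets with a mean at or above the 50th percentile (5.17 on the log2 scale) were kept. Genes came from the platform annotation, in which 41097 probe sets have 1 symbol, 1801 several and 11777 none. Of the 41097, 41043 have a gene ID in RefSeq, and no symbol changed. The brightest remaining probe set stood for a gene. limma 3.58.1 in R 4.3.3 fitted all 9 arrays in 3 groups with an intensity trend, and p-values were adjusted by Benjamini-Hochberg over 12505 genes or 27338 probe sets. The script was tested on simulated data. The number of arrays limits the precision.

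The genes, the lists and the tests were chosen with earlier results of these data known. Named were all 10 family members, list genes past the threshold (at most 4 per list and comparison), and the 5 genes most correlated with SEC23B and with SEC22C. Alternatives covered normalization, pseudocount, filter, the probe set that stands for a gene, array weights, the intensity trend, the arrays in the fit, a replicate block and each array left out. As a check of pairing, the deviations of same-numbered arrays from their group means were correlated, with a set limit of 0.1. They gave 0.13 to 0.19 for miR-376a*G and control, every pair over that limit. The values were -0.36 to 0.03 for miR-376a*A and control and -0.10 to -0.03 for the 2 forms. The labels give replicate numbers but state no pairing, so these values do not settle whether any groups were paired.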

Additional observations from a re-analysis of the deposited data

How the results depend on the processing

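Of 20 alternatives, SEC22B with the G form against the control stayed past the threshold in 19 (all but the mean of probe sets) and SEC22B between the forms in 14. TFG and LMAN2L passed in all 20 in their called comparisons. TMED5 passed in 16 with the A form and 17 with the G form, NAPG in 11 and YIPF5 in 10. The 212902_at probe set of SEC24A passed in 6 of 19 against the control and in 14 of 19 between the forms. SEC23A with the G form against the control turned from 0.03 to -0.31 with array weights, and leaving out 1 array gave -0.35 (without control replicate 1) to 0.22 (without control replicate 2), in its probe set 212887_at too. Causes were not tested.

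The count of called probe sets with the A form against the control was 5. It was 3 with median centring, with no normalization, with no filter, with the replicate block and with only the arrays compared. Outside the genes that chose the families, the only call among the 5 was 212902_at of SEC24A, and it ended under each of these settings. All counts in this paragraph include the genes that chose the families, which have no test in those comparisons. With the G form against the control, 2 genes were called, but 1 with the mean of probe sets and 4 with array weights, and 2 probe sets, but 1 with only the arrays compared. Between the forms 2 genes were called, but 1 with the mean of probe sets. Leaving out 1 array gave 2 genes and 3 to 5 probe sets with the A form against the control. Those 2 genes were the ones that chose the families. With the G form it gave 2 to 4 genes (4 without control replicate 1) and 1 to 5 probe sets. Between the forms it gave 1 to 3 genes and 2 to 7 probe sets. With the replicate block SEC22B kept its calls (limma adjusted p = 0.0172 with the G form against the control and 0.0309 between the forms). It ended those of YIPF5, NAPG and, against the control, probe set 212902_at, and it left the dimmer SEC23B probe set 210293_s_at past the threshold in neither comparison that chose the families. It ended no other call of a named gene. Over all genes, 417, 578 and 329 were called, and 292, 360 and 223 with the replicate block. Array weights gave 2315, 2427 and 1656, only the arrays compared gave 156, 204 and 1292, and leaving out control replicate 1 gave 1670, 2124 and 1215.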
